A study of Mus musculus with 8 samples.

Results

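The genes described here encode the pore-forming and auxiliary subunits of the voltage-gated sodium and calcium channels. They were taken as all transcript clusters (the rows of the array, each a set of probes for 1 transcript locus) that carry exactly 1 platform gene symbol beginning with Scn and a digit, Cacna1, Cacna2d, Cacnb1 to Cacnb4 or Cacng1 to Cacng8. That gave 36 genes of the 22180 genes with a row of their own. A single row represented 33 of them. For the 3 genes with several rows (Cacng2, Cacnb2 and Cacnb4), the row with the highest mean over all 8 arrays was used.

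Total RNA from frozen ventral lumbar spinal cord of mice aged 120 days was measured on Affymetrix Mouse Gene arrays, 1 array per sample. The MLC/SOD1G93A mice (4 arrays) carry a mutant human SOD1 transgene driven by a myosin light chain promoter, which restricts it to skeletal muscle, so the cord was examined in animals whose transgene is not driven in neurons or glia. The FVB mice (4 arrays) were the control strain. Nothing in the labels ties the replicate numbers to separate animals. The p-values therefore cover only the variation among these 8 arrays, part of which may be technical. Values are log2 signals. A difference of 1 is a doubling, and all differences are MLC/SOD1G93A minus FVB. Because probes differ in brightness, no gene's level was set against another's.

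Voltage-gated sodium channels open on depolarization and carry the rising phase of the action potential. Each has 1 alpha subunit, which forms the pore, and beta subunits that adjust gating and placement in the membrane. Voltage-gated calcium channels couple depolarization to transmitter release, calcium-dependent transcription and, in muscle, contraction. Their alpha1 subunit forms the pore, and alpha2delta and beta subunits bring it to the membrane. Most gamma subunits are better known as TARPs, which carry and tune AMPA-type glutamate receptors.

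The 8 general neuronal markers lay between 10.08 and 10.21 on the MLC/SOD1G93A arrays and between 10.06 and 10.19 on the FVB arrays. The genotypes thus had like ranges, but the list mean was higher on MLC/SOD1G93A 1 and 2 and FVB 2 and 4 than on any other array. Tubb3 of this list was at 9.81, 9.84, 9.34 and 9.32 on MLC/SOD1G93A arrays 1 to 4. Whether this signal came from cord or ganglion neurons was not tested. Motor neuron markers lay between 6.49 and 6.94 on the MLC/SOD1G93A arrays and between 6.51 and 6.95 on the FVB arrays. Of the 8, 7 were lower on average in MLC/SOD1G93A, 0 with an unadjusted limma p under 0.05. Isl1 and Prph of this list were higher on each of MLC/SOD1G93A 1 and 2 and FVB 2 and 4 than on any other array. Several other marker lists also separated the arrays. Markers of dorsal root ganglion sensory neurons (7 of 8 listed genes had a row, channel genes left out) averaged 5.89, 5.97, 4.49 and 4.63 on MLC/SOD1G93A arrays 1 to 4, against 4.61, 5.48, 4.67 and 5.58 on FVB arrays 1 to 4. All 7 were higher on each of MLC/SOD1G93A 1 and 2 and FVB 2 and 4 than on any other array, and 3 of the 7 had a mean above that of the median row. Schwann cell markers (11 of 11 found) averaged 7.39, 7.37, 6.90 and 7.31 on the MLC/SOD1G93A arrays and 6.63, 6.67, 6.85 and 6.99 on the FVB arrays. Of the 11, 10 were higher, 8 with an unadjusted limma p under 0.05. Pmp22, Drp2, Egr2, Dhh, Gldn and Matn2 among those 8 were picked by the study on these samples. Foxd3 (0.08), Col28a1 (0.09) and Itgb4 (−0.09) were not among the 8. The caudal Hox genes, whose level depends on the cord segment, averaged 7.38, 7.11, 7.86 and 7.49 on the MLC/SOD1G93A arrays. On the FVB arrays they averaged 6.56, 6.34, 5.77 and 7.30, with FVB replicate 3 lowest. All 6 were higher in MLC/SOD1G93A, each with an unadjusted limma p under 0.05. Hoxd10 and Hoxc13 among them were picked by the study on these samples. Oligodendrocyte markers (7 of 7 lower, 5 with an unadjusted limma p under 0.05) averaged 9.49 to 9.78 on the MLC/SOD1G93A arrays and 9.85 to 10.09 on the FVB arrays, without overlap. Opalin among them was picked by the study on these samples, which also reported Mag as lower. Astrocyte markers (5 of 6 lower, 2 with an unadjusted limma p under 0.05) averaged 8.90 to 9.24 on the MLC/SOD1G93A arrays and 9.27 to 9.39 on the FVB arrays, also without overlap. Microglial markers (4 of 4 lower, 3 with an unadjusted limma p under 0.05) averaged 6.98 to 7.15 on the MLC/SOD1G93A arrays and 7.15 to 7.44 on the FVB arrays. Meningeal markers went both ways (4 of 6 lower and 2 higher, 5 with an unadjusted limma p under 0.05). The 2 higher were Dcn (0.51, 1 of those 5) and Lum (0.43). The list averaged 7.63 to 8.37 on the MLC/SOD1G93A arrays and 8.01 to 8.65 on the FVB arrays. Over all genes, 6.17% had an unadjusted limma p under 0.05, 2.81% higher and 3.36% lower. No test was made of any marker list. The part of these lists in the channel differences was not tested. Xist, the transcript of the inactive X chromosome, was at 10.38 to 10.50 on MLC/SOD1G93A 3 and 4 and FVB 4 and at 3.63 to 4.50 on the other arrays. Sex is not in the labels. In bulk tissue, fewer cells of a type and less RNA per cell cannot be told apart.

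No channel gene passed the Benjamini-Hochberg threshold of 0.05 in limma, and neither did any of the 41345 rows (0%). The lowest adjusted p of a channel gene was 0.684, and the methods' t-test also gave 0 adjusted calls. At an unadjusted p under 0.05, 4 of the 36 genes were found in limma and 5 in the methods' t-test. The background was 1369 of all genes in limma (6.17%), with 624 higher (2.81%) and 745 lower (3.36%), and 7.67% of all genes in the methods' t-test. Of the 4 in limma, the sodium channel alpha subunits Scn3a and Scn7a were higher, and the calcium channel subunits Cacna2d4 and Cacna1s were lower. Of the 5 in the methods' t-test, Scn2a, Scn3a and Cacna1c were higher, and Cacna2d4 and Cacna1s were lower. The study's own thresholds (unadjusted p under 0.05 and a fold over 1.5) applied to limma took in Scn7a alone, against 95 of all genes (0.428%). In the methods' t-test they took in 0 channel genes. All 4 MLC/SOD1G93A arrays were on 1 side of all 4 FVB arrays for 3 channel genes, Cacna2d4, Cacna1s and Cacna1c, against 1058 of all genes (4.77%). These counts were few, and no test was made over the 36 genes as a list.

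The sizes were small as well. The channel genes were higher on average in 24 cases and lower in 12, with a median difference of 0.07, against a median of −0.0001 over all genes. The difference was within 0.15 of 0 for 28 of the 36 (77.8%), against 76.3% of all genes. The range was widest among the 8 sodium channel alpha subunits, from −0.09 to 1.03 with a median of 0.36. The 10 calcium channel alpha1 subunits ran from −0.22 to 0.15, the 4 alpha2delta subunits from −0.26 to 0.22, the 3 calcium channel beta subunits from −0.01 to 0.05, the 8 gamma subunits from −0.13 to 0.11 and the 3 sodium channel beta subunits from −0.10 to 0.11.

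**Figure D1:**
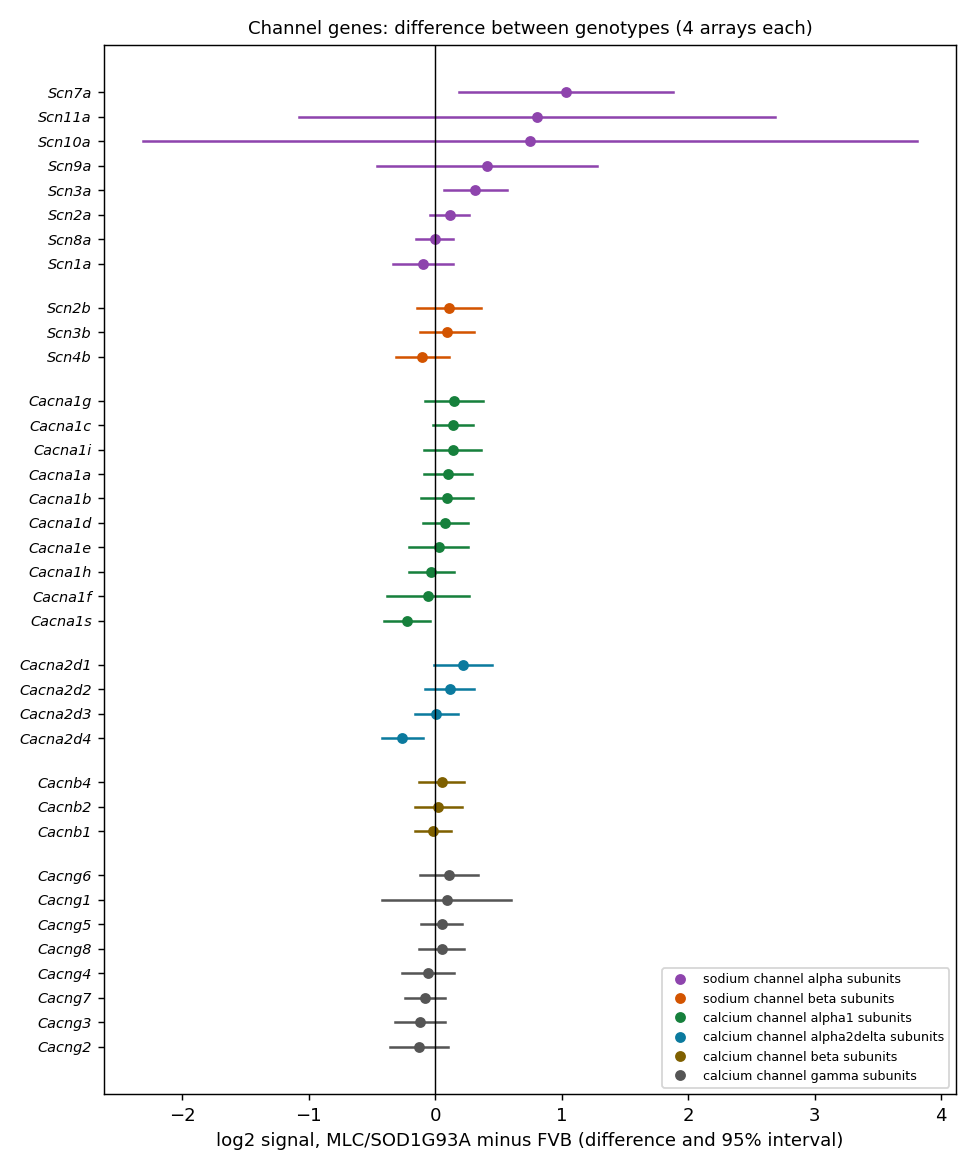
Difference in log2 signal, MLC/SOD1G93A minus FVB (x axis), for each of the 36 channel genes, grouped by subunit family; points are differences and bars 95% intervals of the limma fit with 4 arrays per genotype. Most points lie close to 0 with short intervals, while Scn7a, Scn11a, Scn10a and Scn9a have the widest intervals.

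A set of 4 sodium channel alpha subunits stood out by spread between arrays of the same genotype. Scn10a and Scn11a encode tetrodotoxin-resistant channels of pain-sensing neurons in the dorsal root ganglia, and Scn9a encodes a channel that amplifies small depolarizations in sensory and sympathetic neurons. Scn7a encodes an atypical relative that responds to extracellular sodium rather than to voltage and is known from glia, Schwann cells and sensory neurons. In RefSeq's gene order Scn10a and Scn11a are neighbours on chromosome 9, and Scn1a, Scn9a and Scn7a follow one another on chromosome 2. Their promoters are shown because these 4 genes varied together across the arrays and lie in 2 gene clusters. Each run is the strand of the gene, 5′ to 3′, from 250 bases before to 50 after the annotated start in RefSeq (GRCm38.p6, minus strand for all 4): chr9:119718983-119719282 for Scn10a, chr9:119825407-119825706 for Scn11a, chr2:66634913-66635212 for Scn9a and chr2:66784861-66785160 for Scn7a. Capitals mark matches, on either strand, to the SOX core ACAAAG.
Scn10a: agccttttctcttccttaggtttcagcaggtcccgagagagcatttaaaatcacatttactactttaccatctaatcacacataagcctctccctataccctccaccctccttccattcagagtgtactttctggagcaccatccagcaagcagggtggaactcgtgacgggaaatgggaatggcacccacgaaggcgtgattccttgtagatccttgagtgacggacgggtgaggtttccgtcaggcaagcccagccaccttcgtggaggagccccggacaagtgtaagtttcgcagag
Scn11a: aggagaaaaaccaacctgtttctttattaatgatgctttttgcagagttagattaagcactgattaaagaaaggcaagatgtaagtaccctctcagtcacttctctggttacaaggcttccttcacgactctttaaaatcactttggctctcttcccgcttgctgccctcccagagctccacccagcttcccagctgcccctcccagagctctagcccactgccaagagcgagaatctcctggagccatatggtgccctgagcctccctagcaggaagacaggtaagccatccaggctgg
Scn9a: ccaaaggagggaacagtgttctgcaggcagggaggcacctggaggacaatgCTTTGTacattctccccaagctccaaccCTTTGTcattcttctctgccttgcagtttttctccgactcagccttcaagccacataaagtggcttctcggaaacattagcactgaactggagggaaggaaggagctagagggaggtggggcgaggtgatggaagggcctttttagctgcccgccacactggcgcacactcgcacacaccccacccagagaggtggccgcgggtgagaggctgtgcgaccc
Scn7a: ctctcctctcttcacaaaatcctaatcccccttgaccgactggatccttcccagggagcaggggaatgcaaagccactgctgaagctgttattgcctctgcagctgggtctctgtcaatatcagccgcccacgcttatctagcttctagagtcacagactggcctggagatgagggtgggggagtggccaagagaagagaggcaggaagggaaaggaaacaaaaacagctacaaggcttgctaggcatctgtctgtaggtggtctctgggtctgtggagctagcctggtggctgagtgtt
Scn9a held 2 matches, both on the reverse strand and so written CTTTGT, and the other 3 promoters held none. Over all 32851 RefSeq promoters of this length 18.7% held the SOX core, against 9 of the 38 promoters of channel genes (23.7%), which belong to 28 of the 36 genes. The TATA box TATAAA was found in 2 of the 38 (5.26%) and in 13.6% of all promoters. The RUNX core TGTGGT was found in 7 of the 38 (18.4%) and in 16.8% of all promoters. The RE1 half-site TTCAGCACC, part of the element that silences neuronal genes outside neurons, was in none of the 38 and in 0.371% of all promoters. None of the last 3 motifs was in the 4 promoters printed. GC content was 51.7% for Scn10a, 50.3% for Scn11a, 57.3% for Scn9a and 54% for Scn7a, with a median of 52.7% over all promoters.

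Scn10a was at 8.29, 8.72, 4.21 and 4.16 on MLC/SOD1G93A arrays 1 to 4 and at 3.90, 7.15, 3.94 and 7.37 on FVB arrays 1 to 4. MLC/SOD1G93A 1 and 2 and FVB 2 and 4 were thus high and the other 4 low, in both genotypes alike and on the same arrays as the sensory neuron markers. The genotypes overlapped, and the difference was 0.75 ± 1.34 (SE; limma p = 0.590, exact permutation p = 0.514). The pooled SD within genotypes, 2.23, was exceeded by 0.00902% of all genes.

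Scn11a split the arrays in the same way, with 6.58, 6.82, 3.92 and 4.23 in MLC/SOD1G93A and 3.42, 5.55, 3.68 and 5.68 in FVB. Its mean over all arrays was below that of the median row. The difference was 0.81 ± 0.82 (limma p = 0.355, exact permutation p = 0.429) with a pooled SD of 1.37. Scn9a was at 7.28, 7.60, 6.15 and 6.10 in MLC/SOD1G93A and at 6.14, 6.55, 5.91 and 6.90 in FVB, again with both genotypes overlapping (0.41 ± 0.38, exact permutation p = 0.400, pooled SD 0.63). A second row that the platform assigns jointly to Scn9a and Gm13629 did not follow this split. It was at 7.19, 7.28, 7.39 and 7.38 in MLC/SOD1G93A and at 7.28, 7.31, 7.29 and 7.48 in FVB, a difference of −0.03.

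Scn7a had the largest difference of the 36. It was at 9.20, 9.38, 7.96 and 8.35 in MLC/SOD1G93A, against 7.04, 7.96, 7.48 and 8.27 in FVB. The genotypes overlapped, since MLC/SOD1G93A replicate 3 lay below FVB replicate 4, and within each genotype the arrays with high sensory neuron markers were the higher ones. The means were 8.72 ± 0.68 in MLC/SOD1G93A and 7.69 ± 0.54 in FVB (SD, n = 4 each), a difference of 1.03 ± 0.37 or 2.05-fold (limma p = 0.0224, adjusted p = 0.686, exact permutation p = 0.0857). The 95% interval ran from 0.19 to 1.88. Leaving out 1 array at a time gave differences of 0.81 to 1.29, with an unadjusted limma p under 0.05 in 4 of the 8 cases. The methods' t-test gave an adjusted p of 0.743 for Scn7a, and its unadjusted p also missed 0.05.

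These 4 differences were also computed with the sensory neuron marker mean as a covariate. The pooled SD then became 0.27 for Scn10a, 0.14 for Scn11a, 0.16 for Scn9a and 0.17 for Scn7a, against a median of 0.14 over all genes without the covariate. The differences became 0.22 for Scn10a and 0.26 for Scn9a. They became 0.48 for Scn11a (limma adjusted p = 0.637) and 0.89 for Scn7a (limma adjusted p = 0.455). On the 4 arrays with low sensory neuron markers alone (MLC/SOD1G93A 3 and 4, FVB 1 and 3), the difference was 0.89 for Scn7a, 0.52 for Scn11a, 0.26 for Scn10a and 0.10 for Scn9a. On those 4 arrays Scn10a and Scn11a lay below the median row (5.33), where signal may be close to background, which was not measured. With the Schwann cell marker mean as the covariate instead, the difference of Scn7a was −0.034. The Schwann cell markers moved with genotype themselves (7.24 ± 0.23 in MLC/SOD1G93A and 6.78 ± 0.17 in FVB, SD, n = 4 each). Several of them were picked by the study because they differed on these samples. This fit therefore cannot separate the markers from genotype, and their part in the result for Scn7a was not tested.

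**Figure D2:**
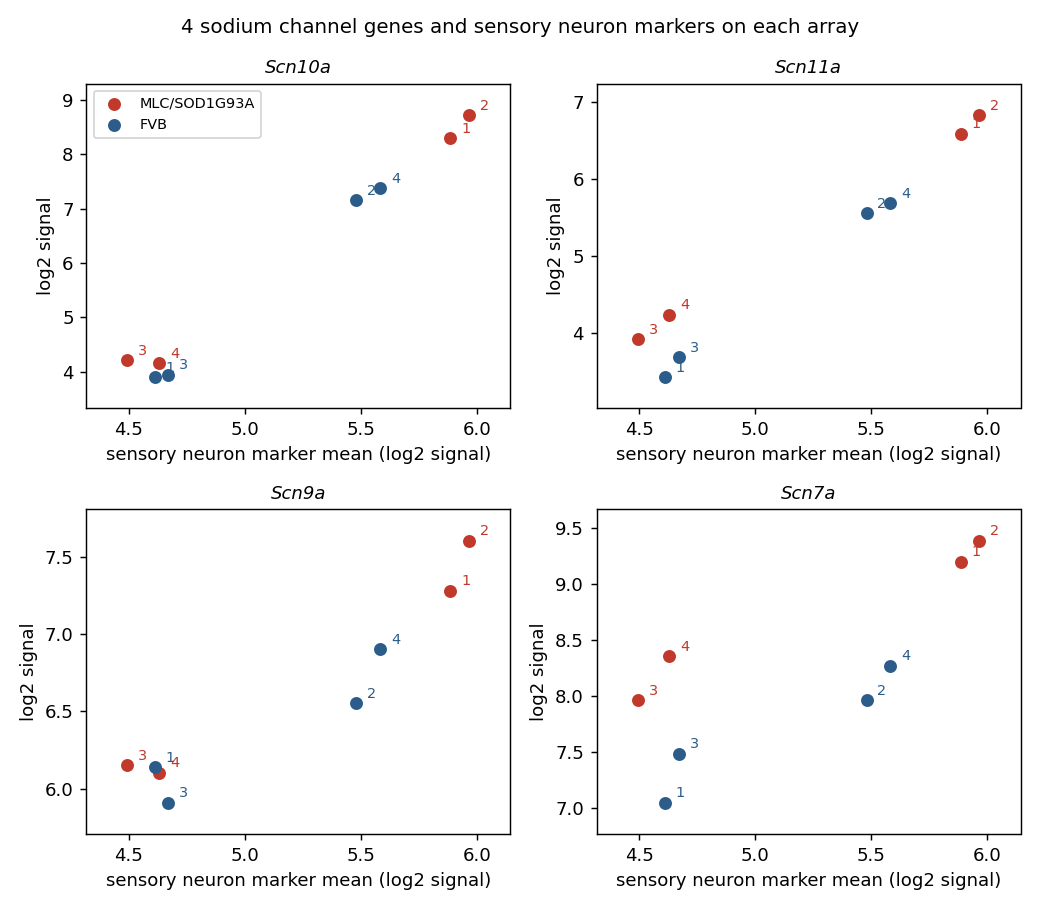
Log2 signal of Scn10a, Scn11a, Scn9a and Scn7a (y axes) against the mean log2 signal of 7 sensory neuron markers (x axes), 1 point per array, numbered by replicate and coloured by genotype. In both genotypes the arrays with marker means of 5.48 to 5.97 are the higher ones for Scn10a, Scn11a and Scn9a. For Scn7a the MLC/SOD1G93A points lie above the FVB points among the low-marker arrays (marker means 4.49 to 4.67). They also do among the high-marker arrays, where their marker means are higher too (5.89 and 5.97, against 5.48 and 5.58).

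The other sodium channel alpha subunits, the main channels of central neurons, varied far less. Scn3a, abundant in the embryonic nervous system, was at 7.08, 7.31, 7.25 and 6.94 in MLC/SOD1G93A, against 6.84, 6.73, 6.72 and 7.02 in FVB. Overlap came only from replicate 4 of each genotype, and the difference was 0.32 ± 0.11 or 1.24-fold (limma p = 0.0186, adjusted p = 0.684, exact permutation p = 0.0571). With the sensory neuron covariate it was 0.30. With the caudal Hox covariate it was 0.16, and its unadjusted p was no longer under 0.05. The caudal Hox genes moved with genotype themselves, and their part in the result for Scn3a was not tested. Scn2a, the neighbour of Scn3a on chromosome 2, encodes a channel of axon initial segments and unmyelinated axons. It was at 8.59, 8.67, 8.70 and 8.54 in MLC/SOD1G93A, against 8.50, 8.57, 8.46 and 8.51 in FVB. The difference was 0.11 ± 0.07 (limma p = 0.130, exact permutation p = 0.0571). In the methods' t-test its unadjusted p was under 0.05.

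Scn1a, which is carried by inhibitory interneurons and motor neurons, was at 8.97, 8.81, 8.86 and 8.98 in MLC/SOD1G93A and 9.05, 9.01, 8.74 and 9.19 in FVB (−0.09 ± 0.10, limma p = 0.398, exact permutation p = 0.429). Scn8a, the channel of mature nodes of Ranvier, was nearly flat. Its values were 9.69, 9.68, 9.68 and 9.69 in MLC/SOD1G93A and 9.66, 9.71, 9.62 and 9.77 in FVB. The difference was −0.0038 ± 0.063, with a 95% interval of −0.15 to 0.14, and 97.9% of all genes had a larger pooled SD. For Scn8a, then, the interval leaves room for a change of up to about 0.15 in either direction.

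**Figure D3:**
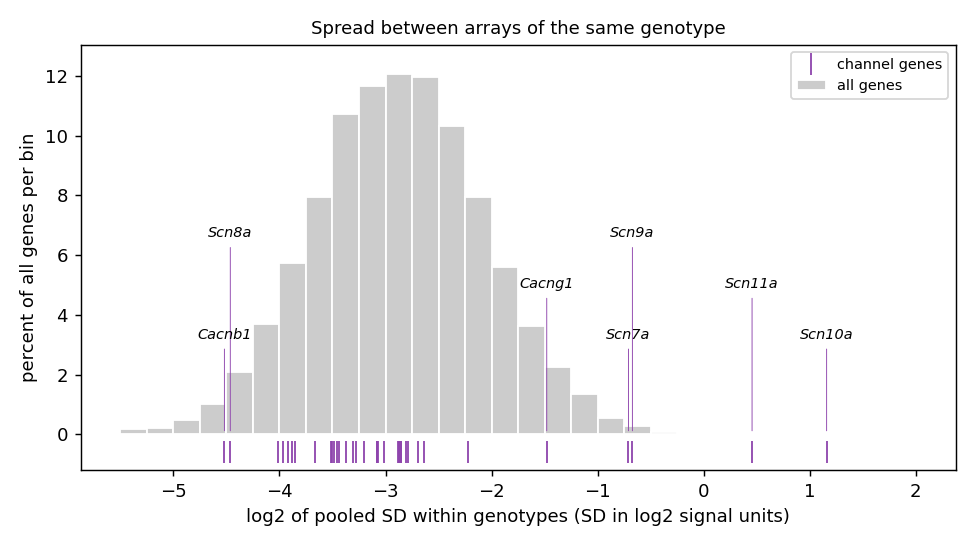
Distribution of the pooled SD within genotypes over all genes (grey bars, percent of genes per bin, x axis on a log2 scale), with the 36 channel genes as ticks below. Scn10a, Scn11a, Scn9a and Scn7a lie in the right tail (SD 0.61 to 2.23), and Scn8a and Cacnb1 at the left end (SD 0.05 and 0.04).

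The sodium channel beta subunits are single-pass proteins that also act as adhesion molecules. Scn4b, the subunit linked to resurgent current, was at 8.84, 8.51, 8.50 and 8.64 in MLC/SOD1G93A and at 8.74, 8.72, 8.66 and 8.78 in FVB (−0.10 ± 0.09). Its neighbour Scn2b was at 8.38, 8.65, 8.62 and 8.17 in MLC/SOD1G93A and at 8.37, 8.32, 8.36 and 8.33 in FVB (0.11 ± 0.11). Scn2b thus had a wide spread in 1 genotype only, 0.23 in MLC/SOD1G93A and 0.02 in FVB (SD). The difference for Scn3b was 0.09 ± 0.09.

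Among the calcium channel alpha1 subunits, those of presynaptic terminals were close to equal. Cacna1a, the pore of the channel that triggers release at the mature neuromuscular junction, was at 8.58, 8.72, 8.67 and 8.52 in MLC/SOD1G93A and at 8.52, 8.60, 8.36 and 8.60 in FVB (0.10 ± 0.08, limma p = 0.258, exact permutation p = 0.257). Cacna1b, the pore of the N-type channel, was at 7.92, 8.07, 8.22 and 7.97 in MLC/SOD1G93A and at 8.02, 7.99, 7.80 and 7.99 in FVB (0.09 ± 0.09). Both had their lowest value in FVB replicate 3. Cacna1e, of the R-type channel, differed by 0.03 ± 0.10.

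The L-type channels link depolarization to transcription in neurons and to contraction in muscle. Cacna1c, the main L-type pore of brain, heart and smooth muscle, was at 8.36, 8.45, 8.47 and 8.38 in MLC/SOD1G93A, against 8.23, 8.32, 8.20 and 8.35 in FVB. Every MLC/SOD1G93A array was above every FVB array, though narrowly (0.14 ± 0.07, limma p = 0.0759, exact permutation p = 0.0286, the smallest that 4 against 4 arrays allow). The methods' t-test gave an unadjusted p of 0.0218 and an adjusted p of 0.676 for Cacna1c. Cacna1d, of motor neurons and endocrine cells, differed by 0.08 ± 0.08. Cacna1s, the voltage sensor of skeletal muscle, was at 4.79, 4.86, 4.86 and 4.72 in MLC/SOD1G93A, against 4.89, 5.12, 4.99 and 5.12 in FVB, without overlap (−0.22 ± 0.08, limma p = 0.0224, adjusted p = 0.686, exact permutation p = 0.0286). Its mean was below that of the median row, where signal may be close to background, which was not measured. Skeletal muscle markers averaged 5.01 to 5.27 on the MLC/SOD1G93A arrays and 4.98 to 5.47 on the FVB arrays. Cacna1f, of the retina, was also below the median row and differed by −0.06 ± 0.14.

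The T-type channels open near rest and shape burst firing. Cacna1g was at 8.02, 8.16, 8.38 and 8.05 in MLC/SOD1G93A and at 8.04, 8.07, 7.86 and 8.05 in FVB (0.15 ± 0.10). Cacna1i was at 7.01, 7.26, 7.44 and 7.18 in MLC/SOD1G93A and at 7.07, 7.13, 6.99 and 7.15 in FVB (0.14 ± 0.10). Both were highest in MLC/SOD1G93A replicate 3 and lowest in FVB replicate 3. The third, Cacna1h, differed by −0.03 ± 0.08.

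Of the alpha2delta subunits, Cacna2d1 and Cacna2d2 bind the drugs gabapentin and pregabalin. Cacna2d1 was at 8.31, 8.37, 8.22 and 8.08 in MLC/SOD1G93A, against 8.03, 8.11, 7.82 and 8.13 in FVB, with only MLC/SOD1G93A replicate 4 within the FVB range (0.22 ± 0.10 or 1.17-fold, limma p = 0.0553, exact permutation p = 0.0857). Cacna2d2 was at 8.90, 8.95, 9.12 and 8.87 in MLC/SOD1G93A and at 8.79, 8.89, 8.76 and 8.95 in FVB (0.11 ± 0.08). Cacna2d3 differed by 0.01 ± 0.07. Cacna2d4, best known from photoreceptors, had the lowest p of the 36. It was at 4.91, 4.80, 4.90 and 4.99 in MLC/SOD1G93A, against 5.19, 5.12, 5.11 and 5.21 in FVB, without overlap (−0.26 ± 0.07 or 1.20-fold lower, limma p = 0.00537, adjusted p = 0.684, exact permutation p = 0.0286). Its mean too was below that of the median row. The unadjusted limma p stayed under 0.05 whichever array was left out.

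**Figure D4:**
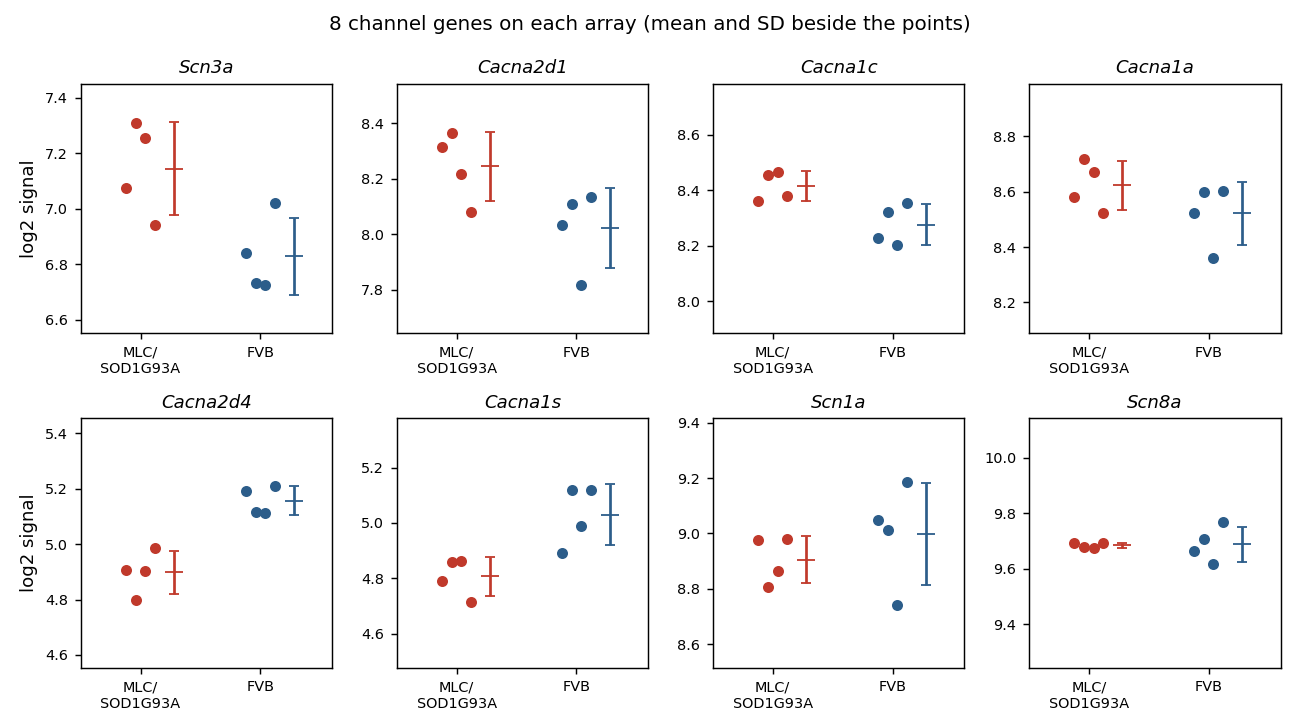
Log2 signal of 8 channel genes on each array, MLC/SOD1G93A left and FVB right, with the mean and SD beside the points and the same height of axis in each panel. Cacna1c, Cacna2d4 and Cacna1s do not overlap between genotypes, Scn3a and Cacna2d1 overlap by few arrays, and Cacna1a, Scn1a and Scn8a overlap broadly.

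The calcium channel beta subunits, which bind the alpha1 subunit inside the cell, were the most even family. Cacnb1 was at 7.12, 7.18, 7.13 and 7.13 in MLC/SOD1G93A and at 7.19, 7.21, 7.09 and 7.13 in FVB (−0.01 ± 0.06). Cacnb2 differed by 0.02 ± 0.08 and Cacnb4 by 0.05 ± 0.08. The dimmer second rows of Cacnb2 and Cacnb4 differed by 0.08 and −0.12, so for Cacnb4 the rows disagreed in sign within their errors.

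Of the 8 gamma subunits, 4 were higher and 4 lower on average. Cacng2, stargazin, was at 8.78, 8.55, 8.91 and 8.80 in MLC/SOD1G93A and at 8.93, 8.73, 8.84 and 9.03 in FVB (−0.13 ± 0.10), while its dimmer row differed by 0.02. Cacng3, another TARP, was at 8.23, 8.20, 8.53 and 8.31 in MLC/SOD1G93A and at 8.47, 8.44, 8.40 and 8.45 in FVB (−0.12 ± 0.09). For Cacng3 only MLC/SOD1G93A replicate 3 was above the lowest FVB array. Cacng7 was at 11.31, 11.23, 11.41 and 11.25 in MLC/SOD1G93A and at 11.45, 11.33, 11.36 and 11.39 in FVB (−0.08 ± 0.07). Its neighbours on chromosome 7, Cacng8 and Cacng6, differed the other way, by 0.05 ± 0.08 and 0.11 ± 0.10. On chromosome 11, the consecutive genes Cacng1, Cacng4 and Cacng5 differed by 0.09 ± 0.22, −0.06 ± 0.09 and 0.05 ± 0.07. Cacng1, a subunit of the skeletal muscle channel, was below the median row, with 4.08, 4.77, 4.65 and 4.47 in MLC/SOD1G93A and 4.64, 4.36, 3.84 and 4.77 in FVB.

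The split of 24 higher to 12 lower was not spread evenly over the arrays. The median deviation of the 36 genes from their own means was −0.01, 0.09, 0.07 and −0.03 on MLC/SOD1G93A arrays 1 to 4 and 0.00024, −0.01, −0.11 and 0.02 on FVB arrays 1 to 4. In FVB replicate 3, 7 of the 36 genes were above their own mean, and in MLC/SOD1G93A replicate 2, 25 were. FVB replicate 3 was also the array with the lowest caudal Hox mean, whose part in this was not tested. The median difference was 0.03 without FVB replicate 3 or without MLC/SOD1G93A replicate 2, and −0.0055 once the caudal Hox mean entered the fit. That mean moved with genotype itself (7.46 ± 0.31 in MLC/SOD1G93A and 6.49 ± 0.63 in FVB, SD, n = 4 each).

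Genes whose products anchor, tether or adjust these channels were examined next, from a list of 39 of which 34 had a row. They divided into 22 higher and 12 lower, with a median difference of 0.02 and 30 of 34 within 0.15 of 0. Only Stac had an unadjusted limma p under 0.05. Stac, an adaptor that slows inactivation of L-type channels, was at 6.14, 6.21, 6.34 and 6.03 in MLC/SOD1G93A, against 5.95, 5.83, 5.58 and 5.93 in FVB, without overlap (0.36 ± 0.11 or 1.28-fold, limma adjusted p = 0.684). Nfasc, whose products include the neurofascin that holds sodium channels at nodes and initial segments, also had no overlap. It was at 9.79, 9.89, 9.94 and 9.92 in MLC/SOD1G93A, against 10.04, 10.08, 9.97 and 10.05 in FVB (−0.15 ± 0.07, limma adjusted p = 0.747). Its row does not tell the products of the gene apart. Oligodendrocyte markers were lower on the same arrays (−0.38), and their part in the result for Nfasc was not tested. The third without overlap was Rims1, an active zone scaffold that tethers presynaptic calcium channels (0.12 ± 0.09, limma adjusted p = 0.836), whose groups were separated even more narrowly than those of Cacna1c. The 1 gene of 34 under 0.05 and the 3 of 34 without overlap stand beside 6.17% and 4.77% of all genes. All 4 active zone tethers were higher on average, by 0.07 to 0.12, and all 3 ryanodine receptors, by 0.04 to 0.10, whereas 5 of the 7 anchors of initial segment and node were lower. FVB replicate 3 was the lowest FVB array for all 4 tethers and for Ryr2 and Ryr3. Without it, in an alternative chosen after seeing the data, the tethers were higher by 0.05 (Rims1), 0.02 (Rims2), 0.05 (Rimbp2) and 0.02 (Erc2), and the ryanodine receptors by 0.09 (Ryr1), 0.05 (Ryr2) and 0.04 (Ryr3). No test was made of either set.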

How the data were processed

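Per transcript cluster, the authors deposited a log2 signal made by RMA with sketch quantile normalization in Affymetrix software (per the labels' processing notes, Affymetrix Expression Console). Versions, genome build and filters: not given in the sources used here. Quantile normalization hides a shift common to most transcripts. Arrays have no read depth, and their number limits the precision. Genes were named from the platform annotation. Of 41345 rows, 23521 had 1 symbol, 1820 several and 16004 none.

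The genotypes were compared with limma 3.58.1 (R 4.3.3), unpaired as in the study's methods, over all rows, with Benjamini-Hochberg adjustment. Counts over all genes used the brightest row of each. Exact permutation tests of single genes were two-sided over 70 relabellings, with a smallest p of 0.0286. The fit was tested on simulated data. Promoter sequences were those of RefSeq (GRCm38.p6). The genes, marker lists and partner list were chosen with earlier results of these data known. Genes given in full had an unadjusted p under 0.05, no overlap between genotypes, 1 of the 5 largest rises or falls above the median row (5.33), 1 of the 5 largest pooled SDs, or were Scn8a, Scn1a or Cacna1a. The others were given by their differences or chosen after their values were seen. Alternatives were the methods' t-test (a one-way ANOVA), a replicate block, array weights, an intensity trend, a filter on dim rows, the mean of a gene's rows, marker covariates, median-centring and leaving out arrays.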

Additional observations from a re-analysis of the deposited data

Results flagged for a closer look

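Of 72 groups of 4 arrays (36 genes in 2 genotypes), 3 held an array whose gap to the nearest other exceeded Dixon's critical value, and chance alone gives about 1 group in 20. Cacna1g was at 7.86 in FVB replicate 3, below the other FVB arrays at 8.04 to 8.07. Cacna1b was at 7.80 in the same array, below the others at 7.99 to 8.02. Scn3b was at 8.65 in MLC/SOD1G93A replicate 2, above the other MLC/SOD1G93A arrays at 8.40 to 8.44.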

How the results depend on the processing

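The adjusted count of channel genes was 0 in all 20 alternatives. The unadjusted count of 4 (6.17% of all genes) became 2 with a replicate block (Cacna2d4 and Scn7a; 5.09%), 1 with the Schwann cell covariate (Cacna1g; 3.96%), 2 on the 4 arrays with low sensory neuron markers (4.5%), and 2 to 5 with 1 array left out (4.72% to 6.85%). It was 6 with the sensory neuron covariate (adding Scn11a and Cacna2d1; 5.8%) and with the intensity trend (adding Cacna1c and Cacna2d1; 6.96%). With the caudal Hox covariate it was 3 (3.81%), Cacna2d4 with Cacng2 (−0.33) and Scn1a (−0.32). Correlations of same-numbered arrays were taken on the residuals, after the genotype mean of each row was subtracted. They were −0.04, 0.18, −0.08 and 0.24. The whole arrays correlated at 0.977 to 0.987 between genotypes. By their residuals, 2 of the 4 MLC/SOD1G93A arrays (replicates 2 and 4) correlated best with the FVB array of the same number. Whether the replicate numbers mark anything shared between the genotypes was not tested. The 1 gene past the study's thresholds, Scn7a, became 0 genes in the methods' t-test and with the Schwann cell or caudal Hox covariate, and 0 to 1 with 1 array left out (0 without MLC/SOD1G93A 1 or 2 or FVB 1 or 3). The 3 genes without overlap became 1 above the median row, 17 on the low-marker arrays (where 38% of all genes separate, with 2 arrays a genotype) and 3 to 7 with 1 array left out. They were 5, 6 and 7 without MLC/SOD1G93A 1, 3 and 4, where 9.45%, 8.07% and 8.02% of all genes separate, against 4.77% with all arrays. The median difference became −0.0055 with the caudal Hox covariate, and 0.03 without MLC/SOD1G93A 2 or FVB 3.

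With the Schwann cell covariate, Scn7a (−0.034), Scn9a (−0.42), Scn10a (−2.10), Scn11a (−1.12), Cacng3 (0.084) and Cacng7 (0.020) turned in sign. With the caudal Hox covariate Cacng1 (−0.38) and Cacna1a (−0.00045) did, and on the low-marker arrays Scn1a (0.026) and Scn8a (0.043). With 1 array left out, Scn10a ran from −0.042 to 1.48, Cacng1 from −0.10 to 0.23 and Scn8a from −0.027 to 0.022. The Schwann cell and caudal Hox means moved with genotype themselves, so the fits with them cannot separate these markers from genotype. The causes were not tested.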
